A study of Mus musculus with 7 samples.

Results

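The small leucine-rich proteoglycans are a family of secreted matrix proteins, and 10 of their genes are described here: Aspn, Dcn, Bgn, Lum, Fmod, Ogn, Omd, Prelp, Kera and Epyc. They were found by symbol in a table of 55536 genes, and all 10 were present. The choice of the family followed from a result, since Aspn was known to be among the strongest falls in the comparison below. The values of that comparison are therefore given for the 10 genes as a description, without p-values. RNA was measured by sequencing of SMART-seq libraries, a full-length chemistry for small cell numbers, from freshly sorted EPCAM-positive medullary thymic epithelial cells (mTECs) of mouse thymus. All 7 libraries came from mice in which both alleles of Ikzf1, which encodes the zinc finger factor Ikaros, were floxed and both alleles of Pou2f3, which tuft cells need, were null (Ikzf1 fl/fl, Pou2f3-/-). The groups differ in Cre, which was absent in 4 libraries (Cre-negative 46, 48, 75 and 77, the numbers in the labels) and present in 3 (Cre-positive 45, 76 and 80), and values per library follow this order throughout. The sources used here do not name the Cre driver, the floxed exon or the age of the mice, or state if every number stands for its own animal, so the spread between libraries may partly be technical.

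Small leucine-rich proteoglycans share a core of leucine-rich repeats folded into a curved solenoid, with which they bind collagen fibrils and set fibril diameter and spacing. Several also hold growth factors of the TGF-beta family in the matrix, or act on receptors when released from it. Class I holds decorin (Dcn), biglycan (Bgn) and asporin (Aspn), class II holds lumican (Lum), keratocan (Kera), fibromodulin (Fmod), osteomodulin (Omd) and Prelp, and class III holds epiphycan (Epyc) and osteoglycin (Ogn). They are best known from connective tissue, cartilage, bone and cornea, and mTECs are known to express many genes of such peripheral tissues for the teaching of T cells.

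Most of the 10 genes lie in groups of neighbours. Ecm2, a related gene, stands with Aspn, Omd and Ogn in 120 kb of chromosome 13 (49504810 to 49624501 on GRCm38), all on the plus strand. Dcn, Lum, Kera and Epyc follow each other in 203 kb of chromosome 10 (97479609 to 97682454), also on the plus strand. Prelp and Fmod are on chromosome 1, 116 kb apart and on opposite strands, beside the related Optc. Bgn is on the X chromosome (73483602 to 73495933). The 250 bases before the RefSeq start (GRCm38.p6) are shown for Aspn, the gene that fell most, for its neighbours Omd and Ogn, and for Bgn and Epyc, the other genes past the threshold of the comparison. Epyc has a second RefSeq start, whose window (97646853 to 97647102) is not shown and held none of the motifs searched below. Capitals mark matches on either strand to TATAAA, which the TBP protein binds in core promoters, or to TGTGGT, a core motif of Runx factors.
Aspn (chr13:49544193-49544442, plus strand): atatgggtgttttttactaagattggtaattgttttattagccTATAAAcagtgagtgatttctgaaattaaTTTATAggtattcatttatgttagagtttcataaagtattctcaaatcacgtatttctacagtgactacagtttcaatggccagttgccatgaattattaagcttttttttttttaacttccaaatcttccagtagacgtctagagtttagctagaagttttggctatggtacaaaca
Omd (chr13:49582212-49582461, plus strand): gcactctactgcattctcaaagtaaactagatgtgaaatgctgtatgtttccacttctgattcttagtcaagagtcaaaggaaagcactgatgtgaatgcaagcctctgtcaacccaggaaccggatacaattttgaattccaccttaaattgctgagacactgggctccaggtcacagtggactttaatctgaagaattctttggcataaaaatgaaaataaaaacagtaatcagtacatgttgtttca
Ogn (chr13:49607765-49608014, plus strand): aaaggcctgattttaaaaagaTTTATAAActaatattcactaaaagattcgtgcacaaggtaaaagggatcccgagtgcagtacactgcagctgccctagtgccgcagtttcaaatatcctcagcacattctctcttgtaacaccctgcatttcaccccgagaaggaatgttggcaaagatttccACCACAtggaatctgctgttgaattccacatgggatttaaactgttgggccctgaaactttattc
Bgn (chrX:73483351-73483600, plus strand): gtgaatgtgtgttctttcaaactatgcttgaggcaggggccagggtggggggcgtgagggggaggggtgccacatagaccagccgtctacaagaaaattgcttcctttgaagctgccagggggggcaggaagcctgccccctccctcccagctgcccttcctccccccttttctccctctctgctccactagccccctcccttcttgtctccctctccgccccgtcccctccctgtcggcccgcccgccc
Epyc (chr10:97643818-97644067, plus strand): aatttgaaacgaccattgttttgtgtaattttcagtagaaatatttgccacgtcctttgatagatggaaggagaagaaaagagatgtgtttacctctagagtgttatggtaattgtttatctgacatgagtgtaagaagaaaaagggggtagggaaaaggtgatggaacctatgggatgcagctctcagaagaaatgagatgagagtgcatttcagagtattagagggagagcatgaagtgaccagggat
TATAAA was found in the windows of Aspn and Ogn, and neighbouring matches of Ogn overlap. It was present in 12.4% of all 32851 RefSeq windows of the same length. TGTGGT was found only in that of Ogn among these 5 genes, and in 14.0% of all windows. TGGGAA, the core that Ikaros binds, was searched on both strands too and was in none of these 5 windows, against 21.6% of all windows. Of the 8 genes of the family with a window in the RefSeq table, Prelp alone held TGGGAA. G and C made up 30% of the bases in the Aspn window and 64.4% in that of Bgn, and the median of all windows was 52.4%. These matches describe letters only.

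The libraries held 9815958 to 12599078 recovered reads, and 17169 to 18014 genes had at least 10 reads in Cre-positive libraries against 19417 to 20467 in Cre-negative ones. The level of Ikzf1 was 1158 ± 42.7 normalized counts (SD, n = 4) without Cre and 1605 ± 267 (SD, n = 3) with Cre, a difference that did not pass (0.46 on the log2 scale, adjusted p = 0.0916). That of Pou2f3 was 1.8 to 27.9 without Cre and 0 to 17.8 with Cre (adjusted p = 0.413). Neither checks the labels, since the deleted part is not named and a null allele can be transcribed. Epcam was read at 3883 to 5099 normalized counts in Cre-negative and 5598 to 6771 in Cre-positive libraries (adjusted p = 0.110), whereas Ccl21a, a gene with close copies, was listed at 0. Y-linked genes summed were above 32 normalized counts in 1 of the 7 libraries, Cre-negative 48.

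Of the 10 genes, 9 passed the filter of a mean of 5 normalized counts over all libraries, each with a mean above 5 in both groups, and Fmod did not. With an adjusted p under 0.05 over all 22878 genes tested (limma), 3 of the 9 were called: Aspn and Bgn lower and Epyc higher in Cre-positive libraries. Of all genes tested, 13.8% were called, 9.11% lower and 4.66% higher, and since Aspn was picked from this comparison nothing is read from the count. The groups did not overlap for 4 of the 9 (Aspn, Bgn, Epyc and Dcn), against 25.3% of all genes tested. In the authors' deposited table the same 3 genes have an adjusted p under 0.05, beside 21.8% of all genes with one. The log2 fold changes of the 9 had a median of -0.38, the value of Prelp, against -0.10 for all genes tested. That median was not stable, and ran from -1.35 without Cre-negative 75 to 0.007 without Cre-positive 80. In bulk RNA, fewer cells of a type and less RNA per cell cannot be told apart.

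**Figure D1:**
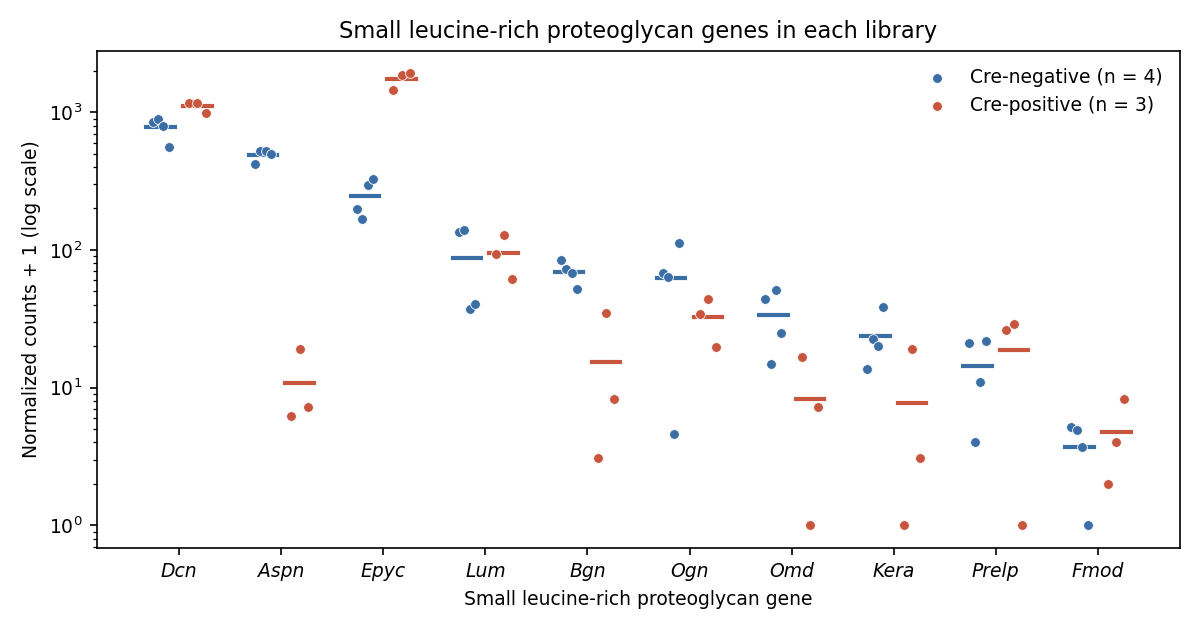
Normalized counts + 1 (log scale) of the 10 genes, 1 point per library, with a bar at each group's mean. The 4 Cre-negative libraries (blue) lie far above the 3 Cre-positive ones (red) for Aspn and far below them for Epyc, while the groups mix for Lum, Ogn, Omd, Kera, Prelp and Fmod.

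Among the class I genes, Aspn was almost lost with Cre, Bgn was lower and Dcn was not called. Aspn (ENSMUSG00000021388, chromosome 13, 49544443 to 49567565) encodes asporin, which carries a run of aspartates, binds collagen and TGF-beta, and is known from periodontal ligament and cartilage. Without Cre it was read at 418.2, 526, 518 and 496.3 normalized counts. With Cre it was read at 5.2, 18 and 6.2, which rest on 5, 18 and 6 reads. The lowest Cre-negative library was thus far above the highest Cre-positive one, and the Cre-negative libraries lay close together. The group means were 490 ± 49.2 (SD, n = 4) and 9.8 ± 7.12 (SD, n = 3), a ratio of 49.96 (85.9 without Cre-positive 76), and the fitted log2 fold change was -5.69 (SE 0.42). By that value Aspn stood at place 72 among the falls of all genes tested, and leaving out any 1 library kept it between -6.19 and -5.39.

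Bgn (ENSMUSG00000031375) encodes biglycan, a proteoglycan of bone and vessel wall that can signal through Toll-like receptors once freed from the matrix. The Cre-negative libraries held 83.8, 71.9, 66.7 and 50.7 normalized counts of it, against 2.1, 34 and 7.3 with Cre. Cre-positive 76 lay well above the other Cre-positive libraries but below every Cre-negative one. The log2 fold change was -2.82 (SE 0.74), and it ran from -2.001 without Cre-positive 45 to -3.75 without Cre-positive 76. Bgn was no longer called by edgeR, with a covariate for Y-linked genes, or when Cre-negative 46, 48 or 75, or one of Cre-positive 45 and 80, was left out.

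Dcn (ENSMUSG00000019929, chromosome 10, 97479609 to 97518143) encodes decorin, the collagen-binding proteoglycan typical of fibroblasts. Its normalized counts were 854.8, 890.4, 790.9 and 562.4 without Cre, against 1157.8, 1170.7 and 989.3 with Cre. Every Cre-positive library was above every Cre-negative one. The log2 fold change was 0.53 (SE 0.20), or 0.33 with library total scaling, and Dcn was not among the called genes.

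Of the class III genes, Epyc was higher with Cre and Ogn was not called. Epyc (ENSMUSG00000019936, chromosome 10, 97644068 to 97682454) encodes epiphycan, a dermatan sulfate proteoglycan known from growth plate cartilage. Without Cre its normalized counts were 198.6, 165.5, 294.6 and 324.6, and with Cre they were 1446.2, 1871.6 and 1916.2. The groups were far apart, with means of 246 ± 75.9 (SD, n = 4) and 1745 ± 259 (SD, n = 3) and a ratio of 7.10. The log2 fold change was 2.86 (SE 0.25), place 106 among the rises of all genes tested, and it stayed between 2.69 and 3.02 when any 1 library was left out. Ogn (ENSMUSG00000021390, chromosome 13, 49608046 to 49624501), the gene of osteoglycin, also called mimecan, was read at 67, 63, 3.6 and 111.7 normalized counts without Cre. Its Cre-positive values were 33.4, 43.1 and 18.7. Cre-negative 75, with 4 reads, lay below all others, so the groups overlapped, and the log2 fold change of -0.32 (SE 0.92) became -1.35 without that library and 0.19 without Cre-negative 77.

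None of the class II genes was called. Lum (ENSMUSG00000036446, chromosome 10, 97565128 to 97572703), whose product lumican carries keratan sulfate in the cornea, was read at 134.1, 137.9, 36 and 39.3 normalized counts without Cre and at 92, 128.2 and 60.2 with Cre. The Cre-negative libraries fell into a high and a low pair that follow the label numbers, and the Cre-positive values lay between them. With a term for the range of the label number the log2 fold change was 0.50, against 0.31 (SE 0.54) without it, and it fell to -0.013 without Cre-negative 75. Omd (ENSMUSG00000048368, chromosome 13, 49582462 to 49592822), the gene of osteomodulin, a bone matrix protein, had 42.7, 13.8, 50.4 and 23.8 in Cre-negative and 15.7, 0 and 6.2 in Cre-positive libraries. Kera (ENSMUSG00000019932, chromosome 10, 97606879 to 97613692), the gene of the corneal keratocan, had 12.6, 21.7, 18.9 and 37.2 against 0, 18 and 2.1 normalized counts. Both Cre-positive means were lower, but Cre-negative 48 lay below Cre-positive 45 for Omd and Cre-negative 46 below Cre-positive 76 for Kera. Their log2 fold changes were -2.61 (SE 0.96) and -2.50 (SE 0.99), and each turned on single libraries. Omd ran from -1.46 without Cre-positive 76 to -3.49 without Cre-positive 45, the one fit of those that left out 1 library in which it was called. Kera ran from -1.52 without Cre-positive 45 to -3.64 without Cre-positive 76, likewise the one such fit that called it.

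Prelp (ENSMUSG00000041577, chromosome 1, 133910304 to 133921414), whose product anchors basement membranes to connective tissue, had 20.1, 3, 9.9 and 20.7 normalized counts without Cre and 25.1, 28 and 0 with Cre. Its log2 fold change of -0.38 (SE 1.17) rests on Cre-positive 80, which had no read, and was 1.21 without it. On recovered reads it was 0.41 with edgeR and 0.40 with DESeq2, so its sign depended on the test. Fmod (ENSMUSG00000041559, chromosome 1, 134037254 to 134048277), the gene of fibromodulin, had at most 7.3 normalized counts in any library, with 0 to 5 reads in Cre-negative and 1 to 7 in Cre-positive libraries. Its mean was under the filter, so the main fit did not test it. With no filter all 10 genes were tested, and Fmod was not called.

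Of the chromosome 13 group Aspn alone was called, and all 4 genes had negative log2 fold changes. Aspn lay 11.7 kb after Ecm2 and 14.9 kb before Omd, and their log2 fold changes were -5.69, -1.38 and -2.61, with -0.32 for Ogn (SE 0.80 to 0.96 for the genes other than Aspn). The whole chromosome 13 group from Ecm2 to Ogn lies inside Cenpp, a centromere protein gene on the opposite strand. Cenpp had 147 ± 70.6 normalized counts (SD, n = 4) in Cre-negative and 185 ± 84.6 (SD, n = 3) in Cre-positive libraries (log2 fold change 0.36, SE 0.48, adjusted p = 0.672; -0.046 without Cre-negative 48 and -0.18 with the Y-linked covariate). Exons of Cenpp and Aspn share 7 of the 2354 exon bases of Aspn, and those of Omd and Ogn share none with Cenpp. On chromosome 10, Epyc lay 30.4 kb after Kera, and the log2 fold changes from Dcn to Epyc were 0.53, 0.31, -2.50 and 2.86. The long noncoding Gm10754, on the opposite strand, covers 1041 of the 2561 exon bases of Epyc and had 0.9 to 8 normalized counts in the 7 libraries. Prelp shares 350 of 3615 exon bases with the antisense RNA Gm15851, which had at most 3 normalized counts. Whether reads were counted by strand is not given in the sources used here.

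**Figure D2:**
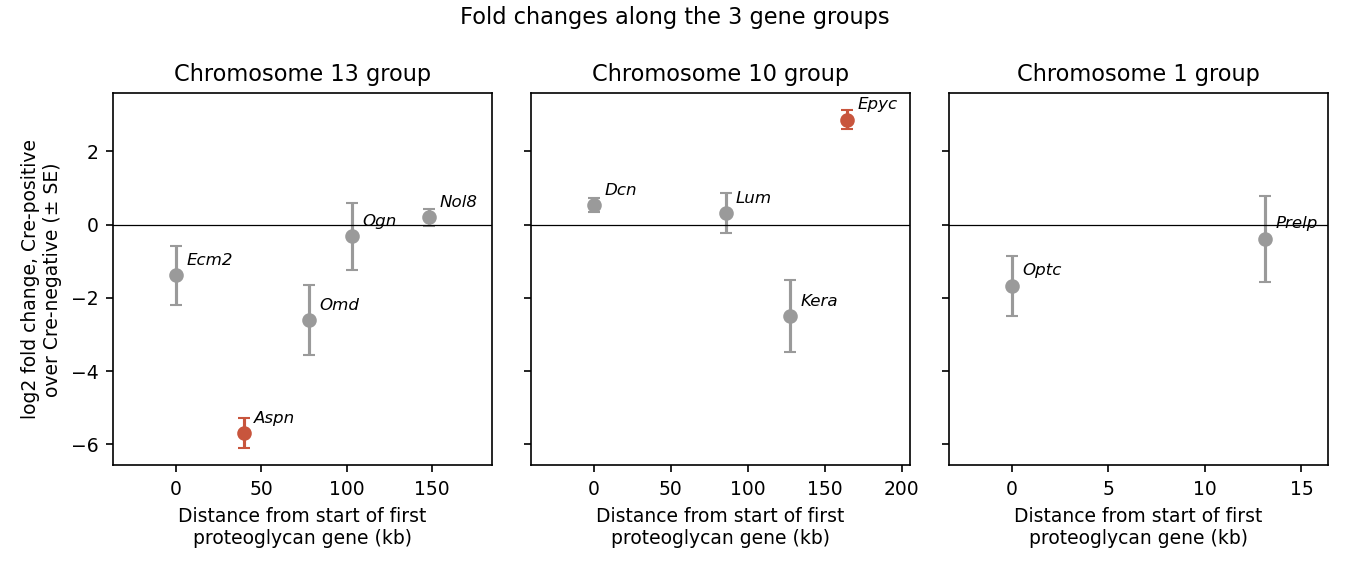
log2 fold change (Cre-positive over Cre-negative, ± SE) against the distance in kb from the start of the first proteoglycan gene, for the groups on chromosomes 13, 10 and 1, with red for called genes and grey for the rest. Aspn at -5.69 and Epyc at 2.86 are the called genes of these groups, and Fmod is not shown because it was not tested. The chromosome 13 panel also holds Nol8 (0.20, not called), a gene beyond Ogn that is not of this family.

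Compared per length, the leading gene of the family was Aspn without Cre and Epyc with Cre. The place of Aspn depends on that scaling, which used 2.354 kb of exon for Aspn and 5.838 kb for Dcn. In normalized counts not divided by length, Dcn was above Aspn in every Cre-negative library (562.4 to 890.4 against 418.2 to 526). The shares given below rest on the same lengths. In Cre-negative libraries Aspn had 208 ± 20.9 normalized counts per kb of exon (SD, n = 4), Dcn 133 ± 25.2 and Epyc 96.0 ± 29.6, then Lum 35.5 ± 23.2, Ogn 23.9 ± 17.3, Omd 14.5 ± 7.48, Bgn 11.2 ± 2.25, Kera 9.91 ± 4.58, Prelp 3.71 ± 2.36 and Fmod 0.817 ± 0.579. Only the steps from Aspn to Dcn and from Epyc to Lum were free of overlap between libraries, and all other neighbours in this order overlapped. In Cre-positive libraries Epyc had 681 ± 101 normalized counts per kb (SD, n = 3), Dcn 189 ± 17.3, Lum 38.2 ± 13.9 and Ogn 12.4 ± 4.79. These 4 levels did not overlap, and the other 6 genes had means of 1.14 (Fmod) to 4.90 (Prelp), with overlapping libraries between all neighbours from Ogn downward. Aspn stood sixth there, at 4.16 ± 3.02 normalized counts per kb.

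As a share of the summed level of the 10 genes per kb, Aspn made up 33.7% to 41.4% in Cre-negative and 0.266% to 0.742% in Cre-positive libraries. The share of Epyc was 11.7% to 23.7% without Cre and 68.0% to 78.0% with Cre. Dcn kept a similar part, 18.0% to 27.8% and 17.7% to 23.9%, with overlapping groups. The summed level itself was 536 ± 10.2 normalized counts per kb (SD, n = 4) without Cre and 940 ± 101 (SD, n = 3) with Cre, and the libraries of the groups did not overlap.

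**Figure D3:**
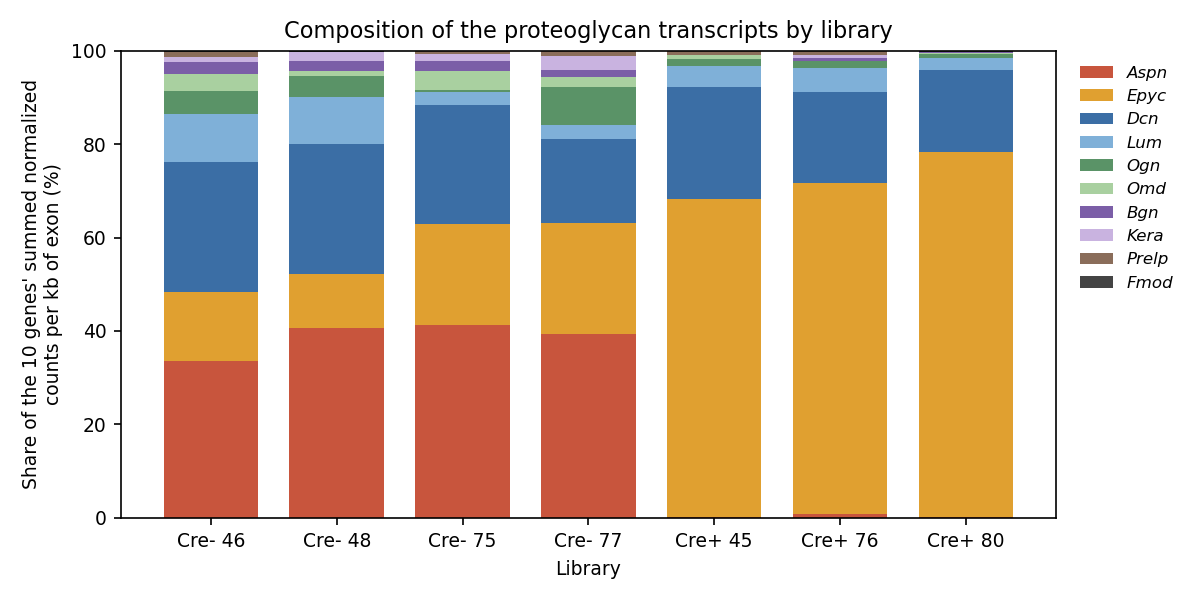
Share (%) of each gene in the summed normalized counts per kb of exon of the 10 genes, 1 stacked bar per library. Aspn fills 33.7% to 41.4% of the 4 Cre-negative bars and under 1% of the 3 Cre-positive bars, in which Epyc fills 68.0% to 78.0%.

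The genes whose profile over the 7 libraries was most like that of Aspn were found by the root mean square difference of log2(normalized count + 1) values, each centred on its own mean. They were Syce1l (0.14), the gluconeogenic gene Fbp1 (0.27), Defa21 (0.29), Gm12589 (0.31) and the sodium channel gene Scn9a (0.35). Syce1l, Fbp1, Defa21 and Gm12589 had Cre-positive means of only 0.67 to 1.33 normalized counts and passed the filter through their Cre-negative levels alone. Their closeness to Aspn thus depends on the added count of 1. Scn9a had a level near that of Aspn in both groups, 510 ± 105 normalized counts (SD, n = 4) and 8.1 ± 6.92 (SD, n = 3). For Epyc the nearest were Crp (0.13), the gene of C-reactive protein, the complement receptor gene Cr2 (0.23) and Gm28806 (0.23). For Dcn they were Vash2 (0.09), Tank (0.09) and Coro7 (0.10), and for Lum Bbox1 (0.16), AC117245.1 (0.20) and Tcp11l2 (0.25). Those of Bgn (Fads3, Gp1ba and Cfap52, 0.35 to 0.37), Omd (Olfr1136, Klk1b8 and Cck, 0.40 to 0.47) and Ogn (Mcmdc2, Mrgprg and Gm42572, 0.48 to 0.50) were less close.

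Of 9 further genes of the family, 8 were tested and 1 was called (12.5%, beside 13.8% of all genes tested), Nepn, which was lower in Cre-positive libraries. Nepn, the gene of nephrocan, had 42.7, 35.5, 53.2 and 17.6 normalized counts without Cre and 0, 2 and 1 with Cre (adjusted p = 0.00399). That is 163 against 3 reads, a ratio of 37.0 with a 95% counting interval of 12.4 to 181, which leaves out the spread between libraries. Of the 3 reads 2 were in Cre-positive 76, without which the ratio was 73.0 (12.9 to 2902). Nepn passed the filter through its Cre-negative level alone, so it could be called only as a fall. Ecm2, the neighbour of Aspn, had 44.2 ± 7.16 normalized counts (SD, n = 4) against 8.4, 86.1 and 5.2 with Cre (log2 fold change -1.38, adjusted p = 0.286). Optc, the gene of the vitreous protein opticin, had 127 ± 81.9 (SD, n = 4) against 40.8, 130.2 and 6.2 (-1.67, adjusted p = 0.201). Cre-positive 76 was the highest Cre-positive library for both genes, and without it both were called, Ecm2 at -2.55 (adjusted p = 0.0262) and Optc at -2.64 (0.0473). Without Cre-positive 80 they were at -0.65 (0.652) and -0.55 (0.633), and edgeR gave -0.38 for Ecm2. The log2 fold changes of Chad, Chadl, Podn, Podnl1 and Tsku ran from -1.34 for Chad to 1.25 for Tsku, with adjusted p from 0.213 to 0.986. Chad was at -0.033 by edgeR and -0.011 by DESeq2, and ran from -0.38 without Cre-positive 76 to -2.76 without Cre-positive 45. Nyx was not tested. No gene of this list rose by limma, edgeR or DESeq2 (at an unadjusted p under 0.05, 0 by limma and Tsku by DESeq2). The 8 log2 fold changes had a median of -0.99 by limma. It was -0.21 over the 6 genes with an adjusted p by edgeR and -0.084 over the 6 with one by DESeq2.

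Among other proteoglycans and their link proteins, 6 of 28 tested genes fell and 2 rose, while 20 did not pass (28.6% called, beside 13.8% of all genes tested, median log2 fold change -0.55). Of cartilage components, Hapln1, whose product links aggrecan to hyaluronan, was read at 92.0 ± 46.3 normalized counts (SD, n = 4) without Cre and fell to 0, 0 and 2.1 (adjusted p = 3.77e-04). Its 402 against 2 reads, both in Cre-positive 80, give a ratio of 137 with a counting interval of 37.7 to 1134. Like Nepn, it passed the filter through its Cre-negative level alone. Prg4, the gene of the joint lubricant lubricin, was read at 786 ± 110 without and 89.8 ± 73.0 (SD, n = 3) with Cre (-3.50 on the log2 scale, SE 0.48, adjusted p = 5.74e-04). It was -2.76 when Cre-positive 80 was left out and -4.15 when 76 was. Gpc3, a glypican of the cell surface, fell by 3.89 on the log2 scale (SE 0.76, adjusted p = 0.00498), with -3.15 and -4.56 without the same libraries. The other 3 that fell were Acan, the gene of aggrecan, Spock2 and Srgn. Vcan, the gene of versican, another partner of hyaluronan, was read at 153 ± 31.6 normalized counts without and 375 ± 66.1 with Cre and rose (1.30 on the log2 scale, SE 0.26, adjusted p = 0.00650). Spock3, a secreted testican, rose by 1.24 (SE 0.23, adjusted p = 0.00410). Hapln1, Prg4, Gpc3, Vcan and Spock3 kept their calls in every fit that left out 1 library, and Acan, Spock2 and Srgn did not, so that without Cre-negative 77 or Cre-positive 80 only those 5 of the 8 calls were left.

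**Figure D4:**
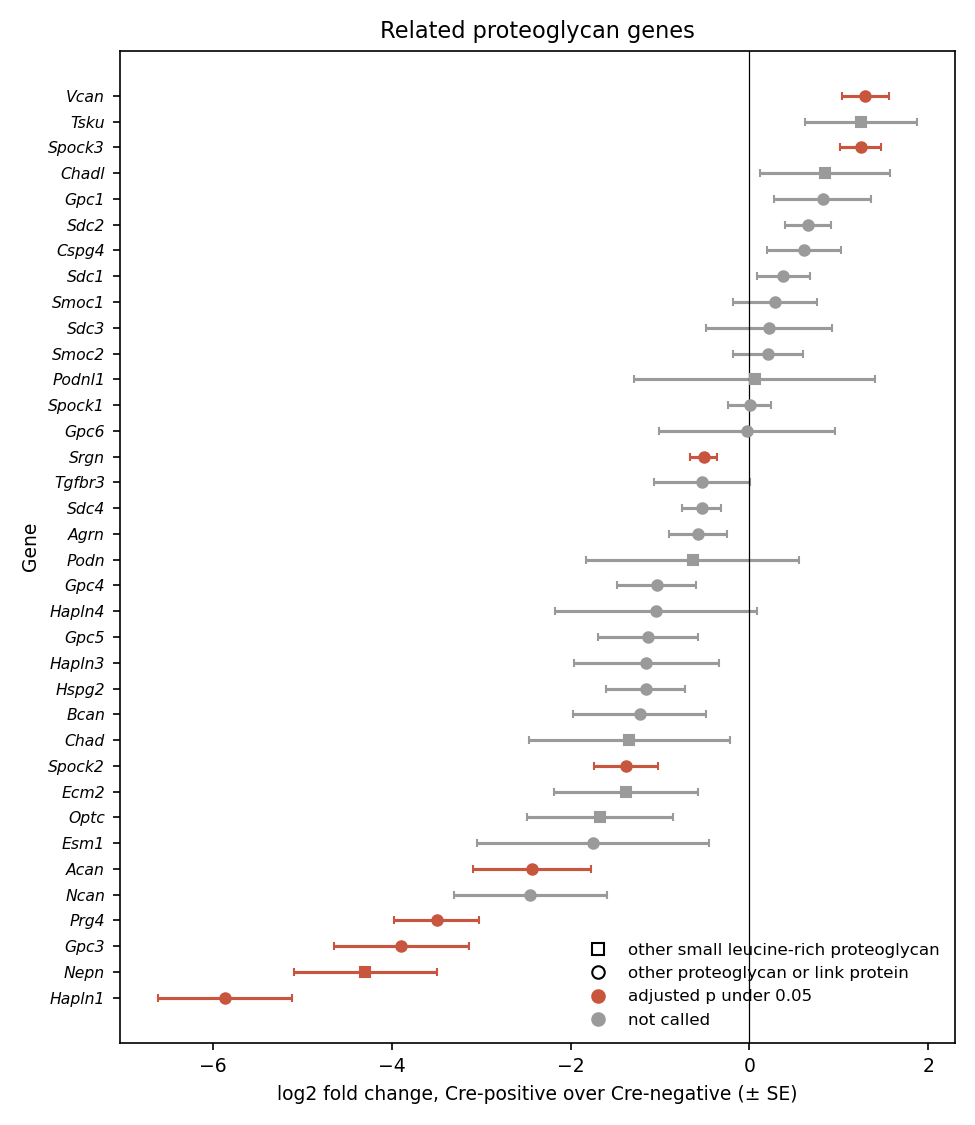
log2 fold change (Cre-positive over Cre-negative, ± SE) of 8 other small leucine-rich proteoglycan genes (squares) and 28 other proteoglycan or link protein genes (circles), with red for an adjusted p under 0.05. Called genes lie at both ends, from Hapln1 at -5.87 to Vcan at 1.30, with more of them lower.

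Of the enzymes that build or sulfate the chondroitin, dermatan and keratan sulfate chains of these core proteins, 23 of 26 tested did not pass, 2 fell and 1 rose (11.5% called, beside 13.8% of all genes tested), with a median log2 fold change of -0.06. Chst2, a sulfotransferase, was read at 309 ± 111 normalized counts (SD, n = 4) without and 715 ± 57.0 (SD, n = 3) with Cre and rose by 1.27 on the log2 scale (SE 0.26, adjusted p = 0.00713). Chst7, another sulfotransferase, fell from 183 ± 25.5 to 56.0 ± 30.6 (-1.81, SE 0.38, adjusted p = 0.00730). Chst11, which sulfates chondroitin, fell by 0.68 on the log2 scale (adjusted p = 0.0493), and its call was lost when any 1 library other than Cre-negative 48 was left out (0.0765 to 0.131), with no filter (0.119), with the label number term (0.0502) and with the Y-linked covariate (0.0548). The xylosyltransferases that start the chain, Xylt1 and Xylt2, were not called.

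Of 33 genes for ligands, proteases and receptors that bind or cut members of the family, 32 were tested, 3 fell and 1 rose (12.5% called, beside 13.8% of all genes tested, median log2 fold change 0.16). Mmp13, a collagenase of cartilage and bone, had 236.3, 51.2, 15.3 and 40.3 normalized counts without Cre and no read in any Cre-positive library (adjusted p = 0.00180). Against a limit of 3 reads over the Cre-positive group its mean was at least 83.4-fold higher without Cre, and at least 34.6-fold without Cre-negative 46. Both bounds cover counting error only. Gzmb, the gene of granzyme B, which can cut decorin and biglycan, fell from 146 ± 99.5 to 4.87 ± 7.58 (adjusted p = 0.00156), with log2 fold changes from -4.57 without Cre-positive 76 to -6.50 without Cre-positive 45. Mmp13 and Gzmb passed the filter through their Cre-negative levels alone. The gelatinase gene Mmp9 rose by 3.36 (SE 0.18, adjusted p = 9.12e-07). Lrp1, an endocytic receptor for decorin, fell by 1.37 on the log2 scale (adjusted p = 0.0203). Its call was lost when Cre-negative 46 or 48 was left out (0.0563 and 0.0566) and with the Y-linked covariate (0.0714). The genes of TGF-beta and its receptors in the list, Tgfb1, Tgfb2, Tgfb3, Tgfbr1, Tgfbr2 and Tgfbr3, were not called. DESeq2 called 8 genes of this list, among them Tgfbr1 and Egfr as higher.

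Markers of other cell types were read in the sorted cells, and some moved with Aspn and Bgn. Of 18 tested fibroblast markers 8 fell by limma (44.4% called, beside 13.8% of all genes tested), 6 by edgeR and 7 by DESeq2. None rose by any of these tools, also at an unadjusted p under 0.05. The median log2 fold change was -0.64, and the summed level of the list of 20 was 2322 to 3478 normalized counts in Cre-negative and 778.5 to 1565 in Cre-positive libraries. The collagen gene Col3a1 had a log2 fold change of -3.94 (adjusted p = 0.00350), Col6a3 one of -3.23 (7.65e-04) and Mfap5, a gene of elastic fibres, one of -3.41 (2.51e-04). Col1a1, Col1a2, Col5a2, Thy1 and Fap fell by limma too, Col1a1 not by DESeq2. The 10 tested markers not called by limma included Pdgfrb, Dpt, Fbn1 and the receptor gene Pdgfra. Of these 10, Col6a1 (0.50, adjusted p = 0.396) and Pi16 (0.36, adjusted p = 0.770) had positive log2 fold changes, and the rest had negative ones. Pdgfra had 9.0 to 21.7 normalized counts in Cre-negative and 3.1 to 23 in Cre-positive libraries. Dcn and Lum, which are not in this list, were not called either. The part of fibroblasts in the fall of Aspn and Bgn was not tested. Of 16 skeletal and tendon markers 5 fell and none rose by limma (median -1.59). By edgeR 3 of 15 tested fell and 0 rose, and by DESeq2 8 fell and 1 rose. Sox9, Col9a1 and Scx had positive log2 fold changes by limma and the rest negative ones. At an unadjusted p under 0.05, Sox9 was higher by each tool and Col9a1 by DESeq2. The summed level of the list was 3814 to 4357 normalized counts without Cre and 3159 to 3690 with Cre. Among the genes that fell was Col10a1, a gene of hypertrophic cartilage, with 191.1, 487.6, 48.6 and 112.7 normalized counts without and 0, 3 and 4.2 with Cre (adjusted p = 7.87e-04). It passed the filter through the Cre-negative level alone. The bone factor Runx2 fell by 3.43 on the log2 scale (adjusted p = 0.00224). Of the skeletal and tendon list 31.25% were called by limma, beside 13.8% of all genes tested. Sox9, the cartilage factor, had 1480 to 1680 normalized counts without Cre and 1657 to 3012 with Cre, which did not pass (adjusted p = 0.0731).

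Of 6 pericyte and smooth muscle markers 1 rose, Rgs5 (log2 fold change 1.32, adjusted p = 3.02e-04), a share of 16.7% beside 13.8% of all genes tested. The summed level of this list was 5027 to 6600 normalized counts without Cre and 10318 to 10949 with Cre, most of it Rgs5. No marker was called by limma, edgeR or DESeq2 among 6 of endothelium (407.4 to 600.8 against 355.2 to 453.7 summed) and 8 of thymocytes, and at an unadjusted p under 0.05 these lists held 1, Tek, and 0. The thymocyte sum was highest in Cre-positive 76 (2521, against 641.3 and 1416 in the other Cre-positive libraries and 843.1 to 1523 in Cre-negative ones). Among Cre-positive libraries, 76 also had the most reads of 8 of the 10 proteoglycan genes, all but Fmod and Omd, and no read of Omd. In normalized counts Epyc was highest in Cre-positive 80 instead (1916.2, against 1871.6 in 76). Over the whole table, 76 had 18014 genes with at least 10 reads, against 17169 in Cre-positive 45 and 17177 in 80. The share of all genes with most reads in 76 was not computed, so nothing is read from the count of 8. Without Cre-positive 76 the log2 fold change of Aspn was -6.19. Of 11 tested mTEC markers 4 fell and 2 rose (54.5% called, beside 13.8% of all genes tested). Sums of this list were 116367 to 198193 without and 139870 to 198988 normalized counts with Cre, most of it H2-Aa and H2-Ab1. Those that fell were Aire, the regulator of peripheral tissue genes in mature mTECs, Foxn1 and the costimulatory genes Cd80 and Cd86, and those that rose were the keratin genes Krt5 and Krt14. Aire was read at 4417 ± 767 normalized counts (SD, n = 4) without and 2967 ± 308 (SD, n = 3) with Cre (-0.56 on the log2 scale, adjusted p = 0.0395), and Cd80 fell by 1.87 (adjusted p = 2.51e-04). The part of this shift in the values of the family was not tested.

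**Figure D5:**
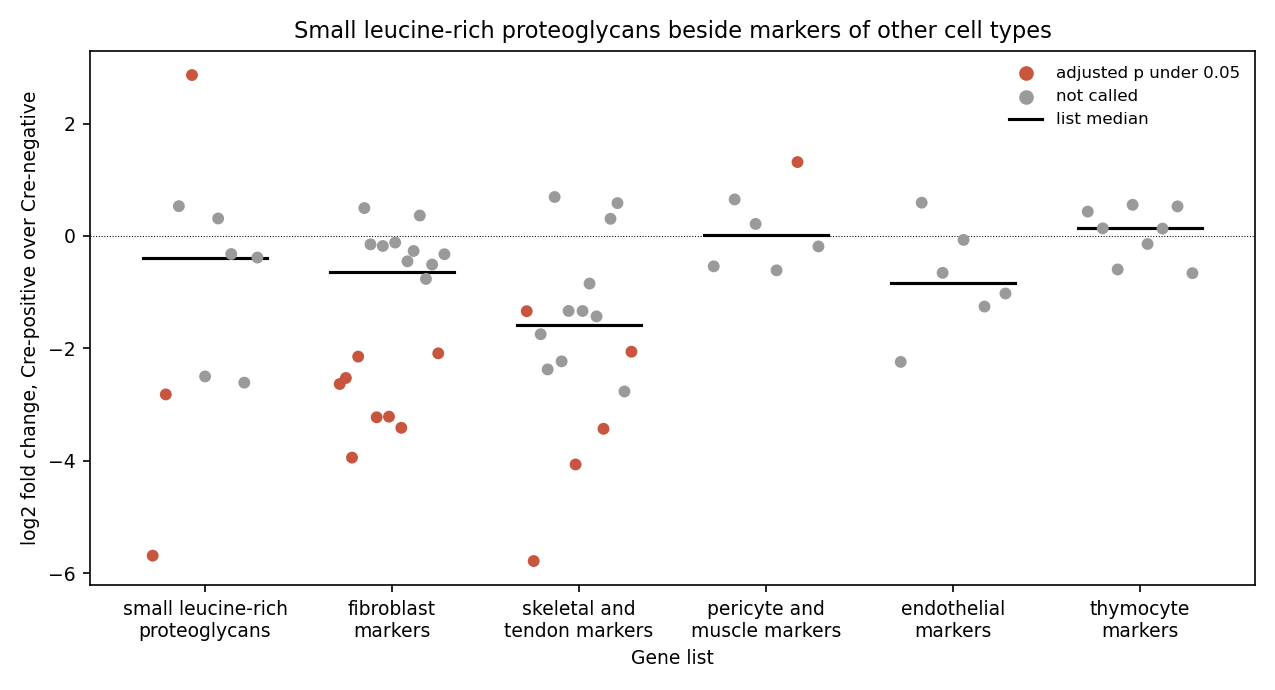
log2 fold change (Cre-positive over Cre-negative) of each tested gene, 1 point per gene, for the small leucine-rich proteoglycans and for 5 lists of cell type markers, with red for an adjusted p under 0.05 and a bar at each list's median. The fibroblast and skeletal lists hold 8 and 5 called genes, all lower, and the endothelial and thymocyte lists hold none. Of all genes tested, 13.8% were called.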

How the data were processed

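The authors deposited 1 table of 55536 genes for 7 samples. Per the submitters' processing notes, STAR 2.7.9a and DESeq2 were used, with build GRCm39. Which counting tool and strand setting they used is not given in the sources used here. The deposited values used are normalized counts, a signal that per the file headers is normalized for each sample and is given to 1 decimal. The authors' deposited columns also hold variance-stabilized log2 values, a log2 fold change, a linear fold ratio, a p-value, its adjusted form and each gene's GC percent. Gene positions in the table equal GENCODE M21 (GRCm38) for all 10 genes and for 95.2% of shared gene models, and are given on that build.

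The 22878 genes whose mean reached 5 normalized counts were tested with limma 3.58.1 (R 4.3.3) with its trend option on log2(normalized count + 1), genotype being the only term, with Benjamini-Hochberg adjustment over all genes tested and a threshold of 0.05. Fold changes are on that scale, which shrinks those of low genes, and are positive where Cre-positive libraries are higher. Adjusted p-values are from limma unless another tool is named. Whole reads were recovered by dividing each normalized count by the worth of 1 read, and 100% of values in each library came out whole within 0.0501 normalized counts. They were tested with edgeR 4.0.16 and DESeq2 1.42.0 as alternatives. Intervals and limits of 3 reads cover counting error only. The tests were checked on simulated reads. Exon lengths are the union of GENCODE M21 exons. In the authors' deposited table the same 3 of the 10 genes have an adjusted p under 0.05, with 21.8% of all 19558 genes that have one. The members, lists and tests were chosen with earlier results of these data known. Named genes are all 10 members, Ikzf1, Pou2f3 and Epcam, all tested relatives, the called genes of each other list with the 3 largest changes in each direction, genes overlapping a member, and the nearest profiles; other genes are named after their values were seen. Alternatives were library total scaling, a pseudocount of 0.5, no filter, a term for the label number range, a Y-linked covariate and leaving out each library. Protein sequences were not used here.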

Additional observations from a re-analysis of the deposited data

Results flagged for a closer look

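The 4 Cre-negative libraries were checked, for each of 35 genes, for a library whose gap to the nearest other exceeded Dixon's 95% limit as a share of the range, which chance passes in about 1 of 20 groups. None of the 10 small leucine-rich proteoglycans passed it. Gzmb did, with 294.7 normalized counts in Cre-negative 77 against 87.2 to 106.3 in the others, and so did Mmp13, with 236.3 in Cre-negative 46 against 15.3 to 51.2.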

How the results depend on the processing

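As a description, since Aspn was picked from this comparison, the log2 fold changes over the 14 alternatives ran from -6.19 to -5.39 for Aspn and from 2.64 to 3.02 for Epyc. The number of the 10 genes called was 2 to 4 when 1 library was left out, and 2 with edgeR or the Y-linked covariate. No paired analysis was run, because the sources used here name no pairing or litter. The groups share no label numbers, which does not show whether libraries were paired. Over all genes 3150 were called (1066 higher and 2084 lower), 1909 with the Y-linked covariate, 1990 to 2696 without 1 library (1990 without Cre-negative 46), and 583 higher and 2636 lower with library total scaling, which moved the all-gene median from -0.10 to -0.30 on the log2 scale. The chain enzymes gave 2 to 3 calls, the further family members 1 to 3 (3 without Cre-positive 76), the other proteoglycans 5 to 7 and the ligands, proteases and receptors 4 to 5 without 1 library. The last list gave 8 calls with DESeq2 and 8 with the label number term, where the main test gave 4. Signs turned in genes that were not called: Cenpp was -0.18 with the Y-linked covariate and -0.046 to 0.83 without 1 library, Podn was -1.43 to 0.23 without 1 library, and Podnl1 (0.06) was -0.020 with library total scaling, -0.45 with the label number term, -0.67 with the Y-linked covariate and -0.50 to 0.92 without 1 library. Of the 10 proteoglycan genes, Lum, Ogn and Prelp turned sign too. Lum was -0.013 without Cre-negative 75. Ogn was 0.0035 with the Y-linked covariate, 0.19 without Cre-negative 77 and 0.007 without Cre-positive 80. Prelp was 0.41 with edgeR, 0.40 with DESeq2 and 1.21 without Cre-positive 80. The cause of these shifts was not tested. Fmod, Prelp, Kera and Omd had at most 56 reads in any library, which limits the precision of their values.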
